A study of Homo sapiens with 6 samples.

Results

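HOX genes encode homeodomain transcription factors that set positional identity along the body axis and, in the adult gut, mark its segments. In humans they lie in 4 clusters, HOXA to HOXD, and genes of the same paralog number in different clusters descend from one ancestral gene. Low paralog numbers sit at the 3′ end of a cluster and act anteriorly, and high numbers sit at the 5′ end and act posteriorly. Colorectal cells keep many HOX transcripts, whose upkeep is known to involve the caudal factor CDX2, Trithorax and Polycomb chromatin complexes and noncoding RNAs made within the clusters.

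The 39 HOX genes described here were all rows, of 26255 per library, whose symbol is HOX, a cluster letter from A to D and a number. Antisense and readthrough rows were left out and are described separately. The choice used the symbol and no measured value. The cells were HT29, which is 1 established cell line of human colorectal adenocarcinoma. One group received YM155, a compound known for lowering survivin, for 24 h, and the other received its solvent DMSO as control. Each group had 3 libraries of messenger RNA. The dose is not given in the sources used here, and no genetic alteration beyond those of the line itself is labelled. The labels do not say whether replicates came from separate cultures, so p-values measure the spread between these libraries, which may be technical.

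The values are FPKM (fragments scaled to the length of the transcript and to the library's fragment total), as deposited by the authors. The steps between low values put the depth at about 15.3M to 17.9M effective reads in YM155 libraries and 24.4M to 27.3M in DMSO libraries (M, mega). A count of 3 reads per effective kilobase of transcript then corresponds to 0.168 to 0.196 FPKM with YM155 and 0.110 to 0.123 FPKM with DMSO, and lower values rest on counting error. Markers of colorectal epithelium were present in every library, with a summed level of 9293 to 10163 FPKM with YM155 and 5764 to 6048 FPKM with DMSO over 12 genes. Of these 12 genes 10 were tested, and 7 rose, 2 fell and 1 was not called. For all genes tested the shares were 43.6% called higher and 41.0% called lower. CDX2 reached the 1 FPKM needed for the test only in DMSO libraries and CDH17 only in YM155 libraries, so their directions were fixed. The differentiation keratin KRT20 was 6.71-fold higher with YM155, the microvillus gene VIL1 was 1.73-fold lower and CDX2 was 3.81-fold lower, and CDX1 and GPA33 stayed under 1 FPKM in all libraries. Fibroblast markers summed to 0.103 to 0.135 FPKM with YM155 and 0.269 to 0.358 FPKM with DMSO over 6 genes, with DCN at 0 throughout. The endothelial markers PECAM1, VWF and CDH5 summed to 0.138 to 0.239 FPKM with YM155 and 0.0495 to 0.144 FPKM with DMSO. The part of these markers in the HOX results was not tested. Of 5 leukocyte markers only LYZ, which intestinal secretory cells also make, was abundant, and PTPRC did not exceed 0.0172 FPKM. In bulk RNA, fewer cells of a type and less RNA per cell cannot be told apart.

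HOX messenger RNA fell with YM155 across the HOXA, HOXB and HOXC clusters. Summed over all 39 genes the level was 158 ± 11.5 FPKM with YM155 and 416 ± 6.62 FPKM with DMSO (SD, n = 3 each), which is 2.63-fold lower. A gene entered the test if 3 or more of the 6 libraries had it at 1 FPKM or above, and 25 of the 39 did. By limma on log2(FPKM + 1), with Benjamini-Hochberg adjustment over all 12035 genes tested and a threshold of 0.05, 21 of the 25 were lower and 0 higher. No HOX gene was higher at an unadjusted p under 0.05 either (0 of 25). Among all genes tested 41.0% were called lower and 43.6% higher. After upper-quartile scaling those shares were 50.8% and 34.8%, and 24 of the 25 HOX genes were lower. The log2 fold change was -1 or less for 17 of the 25, against 11.8% of all genes tested. The groups did not overlap, with every YM155 library below every DMSO library, for 22 of the 25, against 41.5% of all genes tested. The reverse order was seen for 0 of the 25, against 44.4% of all genes tested. The median log2 fold change of the 25 was -1.28, beside 0.02 for all genes tested. A gene that passed the filter only through its DMSO libraries had to be lower with YM155, so these counts describe the 25 and not all 39. HOXB13 and HOXC4, under 1 FPKM in every YM155 library, passed in this way, so their direction was fixed. Both are counted in the 21 called lower, in the 17 and in the 22. Fold changes below are ratios of mean FPKM, and log2 fold changes are on the log2(FPKM + 1) scale, on which changes of scarce transcripts come out too small.

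**Figure D1:**
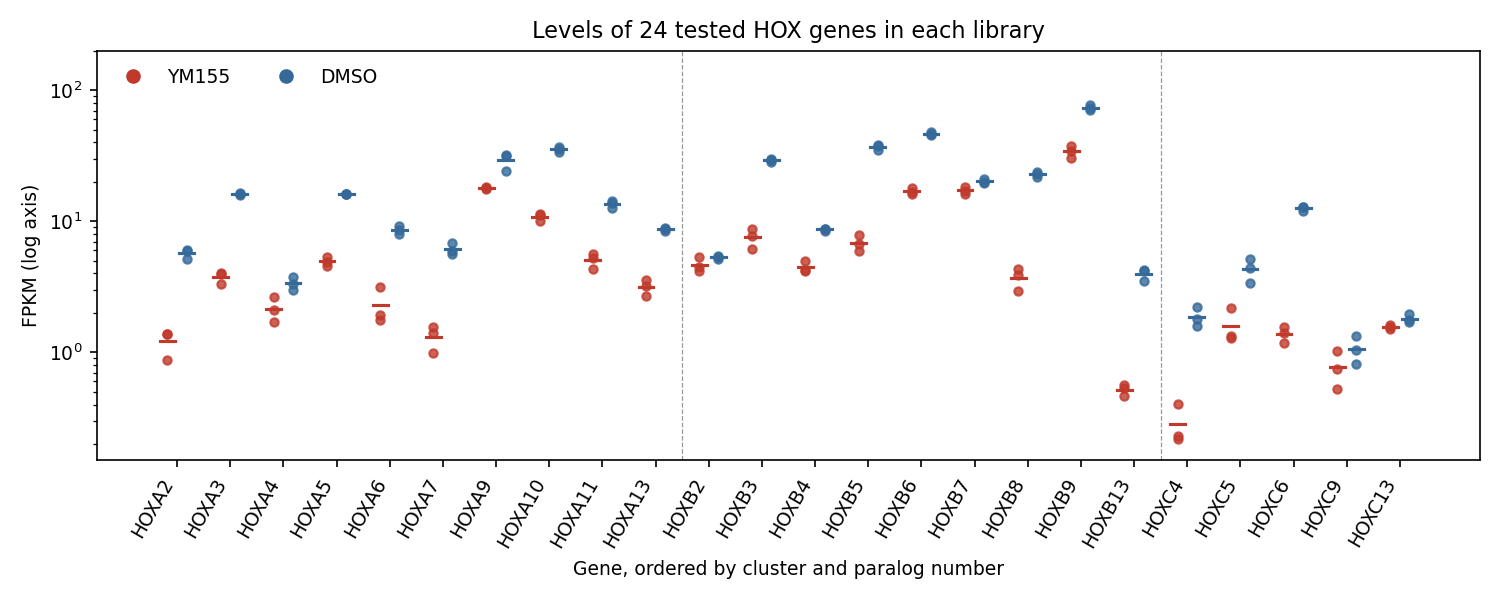
FPKM (log axis) of 24 of the 25 tested HOX genes, ordered by cluster and paralog number, with 1 point per library, YM155 in red left of DMSO in blue, and a bar at each group mean. The red points lie below the blue ones for 22 genes, whereas the groups overlap for HOXB2 and HOXC9.

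**Figure D2:**
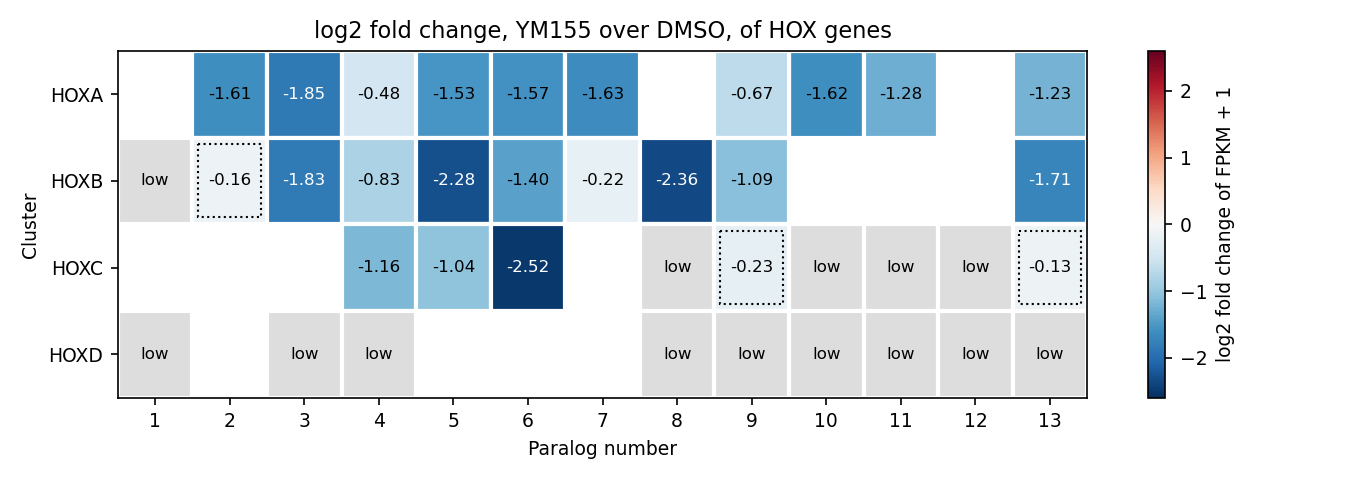
Log2 fold change (YM155 over DMSO, log2 of FPKM + 1) of HOX genes by cluster (rows) and paralog number (columns). Dotted frames mark 3 genes not called, "low" marks genes too scarce to test, and blank squares are genes that do not exist or are not reported; the changes shown range between -2.52 (HOXC6) and -0.13 (HOXC13).

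All 11 HOXA genes were tested, and 10 of them fell. The cluster summed to 57.8, 51.2 and 57.1 FPKM in the YM155 libraries, against 146.5, 139 and 150.8 FPKM in the DMSO libraries, a ratio of 0.380. Every YM155 library was therefore below every DMSO library. HOXA2, which patterns the second pharyngeal arch, fell to 0.871, 1.38 and 1.38 FPKM with YM155, against 5.93, 5.17 and 6.01 FPKM with DMSO, a 4.71-fold fall. HOXA3, needed for thymus and parathyroid formation, was at 3.998, 3.34 and 3.97 FPKM with YM155 and 16.3, 16.1 and 15.99 FPKM with DMSO. This 4.29-fold fall had the most negative log2 fold change of the cluster (-1.85, SE 0.07, adjusted p = 2.3e-08 by limma).

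In the middle of the HOXA cluster the falls differed in size between adjacent genes. HOXA4 had 2.098, 1.72 and 2.65 FPKM with YM155 and 3.002, 3.33 and 3.77 FPKM with DMSO, a 1.56-fold fall (log2 fold change -0.48, SE 0.12, adjusted p = 0.0041 by limma). Its call ended with quantile normalization (log2 fold change -0.21) and with the abundance trend removed (-0.16). HOXA5, a regulator of lung and gut development, was steady within groups, with 5.34, 4.57 and 4.89 FPKM with YM155 against 16.07, 16.04 and 16.06 FPKM with DMSO, and fell 3.25-fold. HOXA6 had 3.16, 1.77 and 1.92 FPKM with YM155 and 8.06, 9.13 and 8.51 FPKM with DMSO, a 3.75-fold fall. HOXA7 had 1.55, 0.986 and 1.41 FPKM with YM155 and 5.98, 5.64 and 6.85 FPKM with DMSO, a 4.68-fold fall. For both genes every YM155 library was below every DMSO library by a wide margin.

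Of the posterior HOXA genes, of Abdominal-B type, HOXA9 and HOXA10 were the most abundant of the cluster in both groups. HOXA9, a driver of leukaemia when overexpressed, had 17.6, 17.9 and 18.3 FPKM with YM155 and 31.6, 24.3 and 32.3 FPKM with DMSO, a 1.64-fold fall (log2 fold change -0.67, SE 0.10, adjusted p = 0.00015 by limma). HOXA10, which acts in the uterus and in blood cell precursors, fell 3.26-fold, with 11.3, 10.1 and 11.2 FPKM with YM155 against 35.9, 33.8 and 36.6 FPKM with DMSO. With DMSO HOXA10 was above HOXA9 in every library, and with YM155 HOXA9 was above HOXA10 in every library. A readthrough row that joins both genes, HOXA10-HOXA9, fell 3.40-fold, to 1.66 ± 0.701 FPKM with YM155, against 5.64 ± 1.30 FPKM with DMSO (SD, n = 3 each). Its reads can be shared with HOXA9 and HOXA10, so the levels of these 3 rows are uncertain. HOXA11, needed with HOXA10 in the uterus and kidney, had 5.60, 4.33 and 5.21 FPKM with YM155 and 12.7, 14.4 and 13.8 FPKM with DMSO, a 2.70-fold fall. HOXA13, of the hindgut and distal limb, had 3.22, 2.70 and 3.55 FPKM with YM155 and 8.96, 8.47 and 8.80 FPKM with DMSO, a 2.77-fold fall.

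HOXB was the most abundant cluster in both groups, with 60.8% ± 0.577 of summed HOX FPKM with YM155 and 59.4% ± 1.35 with DMSO (SD, n = 3 each). It summed to 102.9, 87.9 and 97.6 FPKM in the YM155 libraries and 239.7, 254 and 248.6 FPKM in the DMSO libraries, a ratio of 0.388. Of its 10 genes 9 were tested, and 8 fell while HOXB2 did not pass. HOXB2, a hindbrain gene, was at 5.32, 4.19 and 4.49 FPKM with YM155 and 5.39, 5.19 and 5.37 FPKM with DMSO (log2 fold change -0.16, 95% interval -0.35 to 0.03, adjusted p = 0.096 by limma). It was called lower without YM155 replicate 1 (log2 fold change -0.24), with upper-quartile (-0.37) and common sum scaling (-0.43) and with array quality weights (-0.20), and was at 0.00188 with the abundance trend removed. HOXB3 fell 3.87-fold, with 8.76, 6.11 and 7.79 FPKM with YM155 against 29.8, 29.4 and 28.5 FPKM with DMSO. HOXB4, used to expand blood stem cells, had 4.18, 4.24 and 4.97 FPKM with YM155 and 8.79, 8.70 and 8.50 FPKM with DMSO, a 1.94-fold fall.

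The central HOXB genes fell by very different amounts. HOXB5, which acts in neural crest cells of the gut, fell 5.41-fold, with 7.87, 5.93 and 6.65 FPKM with YM155 against 34.9, 38.4 and 37.5 FPKM with DMSO (log2 fold change -2.28, SE 0.09). HOXB8, known from myeloid progenitors, fell 6.18-fold, with 4.31, 2.93 and 3.92 FPKM with YM155 against 21.9, 23.1 and 24.0 FPKM with DMSO (log2 fold change -2.36, SE 0.11). Between them, HOXB6 was at 17.95, 16.8 and 16.3 FPKM with YM155 and 45.2, 48.3 and 46.2 FPKM with DMSO, a 2.74-fold fall. HOXB7, overexpressed in several carcinomas, stayed close to its control level, with 16.3, 16.9 and 18.4 FPKM with YM155 and 19.9, 19.7 and 20.9 FPKM with DMSO. Its 1.17-fold fall was called (log2 fold change -0.22, SE 0.06, adjusted p = 0.006 by limma) under every alternative run. With DMSO, HOXB8 was above HOXB7 in all 3 libraries, and with YM155 it was below HOXB7 in all 3.

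HOXB9, which patterns the thoracic skeleton, was the most abundant HOX gene in both groups. It had 37.8, 30.3 and 34.5 FPKM with YM155 and 70.2, 77.2 and 73.5 FPKM with DMSO, a 2.15-fold fall (log2 fold change -1.09, SE 0.08, adjusted p = 1.1e-06 by limma). HOXB13, which lies apart at the 5′ end of the cluster and marks prostate and distal colon epithelium, fell 7.65-fold, with 0.461, 0.532 and 0.566 FPKM with YM155 against 3.52, 4.25 and 4.15 FPKM with DMSO. The filter fixed the direction of HOXB13, since only its DMSO libraries reached 1 FPKM. HOXB1 was listed at 0 in all YM155 libraries and reached 0.0503 FPKM in 1 DMSO library.

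**Figure D3:**
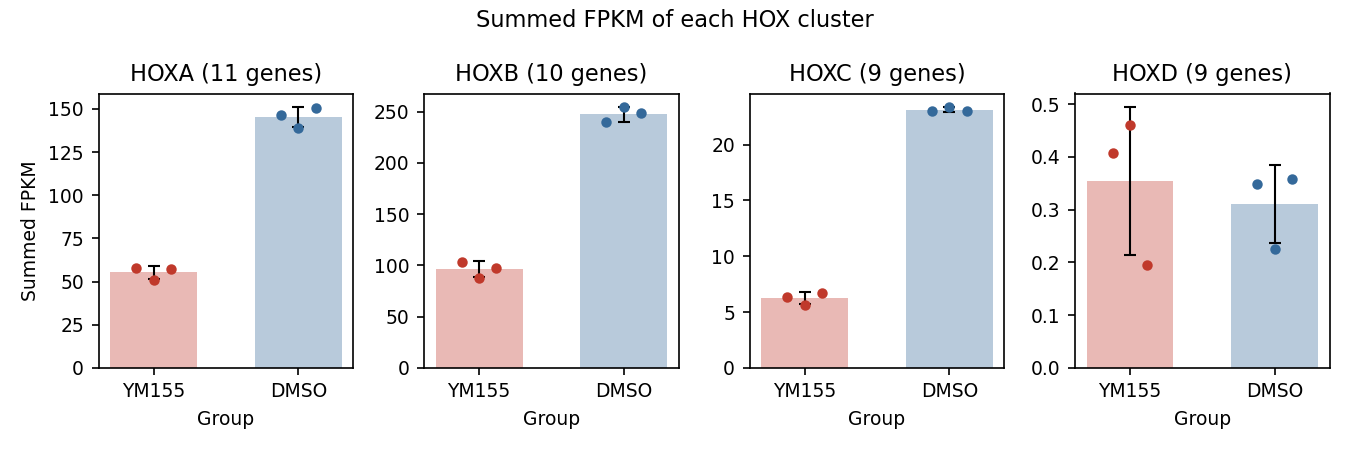
Summed FPKM of all genes of each HOX cluster, in separate panels with their own axes from 0. Points are libraries, bars are group means and error bars are SD (n = 3 each), with YM155 left of DMSO. The groups are apart for HOXA, HOXB and HOXC and overlap for HOXD, whose sums stay under 0.5 FPKM.

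The HOXC cluster was scarcer and fell to 6.33, 5.64 and 6.72 FPKM in the YM155 libraries, against 22.98, 23.4 and 23.0 FPKM in the DMSO libraries, a ratio of 0.269. Its share of summed HOX FPKM was 3.78% to 4.16% with YM155 and 5.44% to 5.61% with DMSO, so that the groups did not overlap. Of its 9 genes 5 were tested, and 3 of them fell. HOXC6, a gene often high in carcinomas, had the greatest fall of any HOX gene tested, 9.12-fold, with 1.41, 1.17 and 1.56 FPKM with YM155 against 12.01, 12.9 and 12.9 FPKM with DMSO (log2 fold change -2.52, SE 0.08, adjusted p = 7.8e-09 by limma). HOXC4 fell 6.63-fold, with 0.402, 0.229 and 0.219 FPKM with YM155 against 2.23, 1.599 and 1.80 FPKM with DMSO, and its YM155 values lie close to the level of 3 reads per kilobase. Only its DMSO libraries reached the 1 FPKM of the filter, so its direction was fixed. HOXC5 varied more, with 1.29, 1.34 and 2.17 FPKM with YM155 against 5.19, 4.36 and 3.40 FPKM with DMSO, and fell 2.70-fold. RefSeq gives HOXC4 and HOXC5 a common start and has all 3 genes overlap (assembly GRCh38.p14), so how reads were divided among them is uncertain.

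HOXC9 and HOXC13, the other HOXC genes tested, did not pass. HOXC9 was at 1.02, 0.751 and 0.527 FPKM with YM155 and 0.821, 1.04 and 1.34 FPKM with DMSO, and its groups overlapped (log2 fold change -0.23, 95% interval -0.52 to 0.07). HOXC13, a regulator of hair keratin genes, was at 1.55, 1.63 and 1.52 FPKM with YM155 and 1.70, 1.95 and 1.77 FPKM with DMSO (log2 fold change -0.13, 95% interval -0.30 to 0.04). The direction of HOXC13 depended on scaling. It was called higher with quantile normalization (0.19) and with the abundance trend removed (0.29), and lower with upper-quartile (-0.29) and common sum scaling (-0.33). HOXC9 was called lower with upper-quartile (-0.35) and common sum scaling (-0.38) and without YM155 replicate 1 (-0.33). HOXC8 missed the filter by 1 library, with 0.658, 0.428 and 0.615 FPKM with YM155 and 0.984, 1.42 and 1.72 FPKM with DMSO. With a filter of 0.5 FPKM it was tested and called lower (log2 fold change -0.59, SE 0.12, adjusted p = 0.0016 by limma). HOXC11 reached 0.0913 FPKM in 1 YM155 library and 0.119 FPKM in 1 DMSO library, HOXC10 reached 0.109 FPKM in 1 YM155 library, and HOXC12 was listed at 0 in all 6.

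None of the 9 HOXD genes entered the test. The cluster summed to 0.408, 0.461 and 0.195 FPKM in the YM155 libraries and 0.349, 0.224 and 0.358 FPKM in the DMSO libraries, and the groups overlapped. HOXD8 was the most abundant with DMSO, at 0.0931, 0.199 and 0.137 FPKM with YM155 and 0.208, 0.182 and 0.261 FPKM with DMSO. HOXD4 was listed at 0.179, 0.204 and 0.0586 FPKM with YM155 and at 0.0335, 0 and 0 FPKM with DMSO. The 2 higher YM155 values are near the level that 3 reads give. Without a filter it was the only HOX gene called higher (log2 fold change 0.18, SE 0.05, adjusted p = 0.021 by limma). The other 7 HOXD genes stayed under 0.1 FPKM in every library, and a change in them was not detectable at this depth.

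By paralog number, summed over clusters, groups 3, 5 and 8 were 4.005-fold, 4.29-fold and 5.55-fold lower with YM155. Group 8 was at 4.43 ± 0.783 FPKM with YM155 and 24.6 ± 1.44 FPKM with DMSO (SD, n = 3 each). HOXB8 was most of it in both groups. Group 7 was 1.42-fold lower, at 18.5 ± 1.12 FPKM with YM155 and 26.4 ± 1.27 FPKM with DMSO, and is mostly HOXB7 by level. Group 9, the most abundant, was 1.97-fold lower, at 52.9 ± 3.76 FPKM with YM155 and 104 ± 2.58 FPKM with DMSO. Group 12 was listed at 0 in every library. All 12 tested genes of paralog numbers 4 to 8 fell, as did 3 of 5 of numbers 1 to 3 and 6 of 8 of numbers 9 to 13. HOXC4 is among the 12 and HOXB13 among the 6, and the filter fixed their direction. Across the 25 tested genes, which share libraries and are not independent, paralog number and log2 fold change had a Pearson correlation of -0.03 and a Spearman correlation of -0.03. Within clusters the Pearson correlation was -0.23 for HOXA (11 genes), -0.28 for HOXB (9 genes) and 0.63 for HOXC (5 genes). The Spearman correlation was -0.03, -0.28 and 0.70 in the same order. Of the 5 HOXC genes, HOXC4 had its direction fixed by the filter, and HOXC9 and HOXC13 changed sign with scaling. How reads were divided among HOXC4, HOXC5 and HOXC6 is uncertain, so no trend is read from the HOXC values. Paralogs of the same number could differ, as HOXA7 (-1.63) and HOXB7 (-0.22) did, or HOXB13 (-1.71), HOXA13 (-1.23) and HOXC13 (-0.13), on the log2 scale. These differences between genes were not tested.

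The falls were read against the abundance of the transcripts, because log2 fold change moved with level over all genes. When tested genes were ordered by mean FPKM and cut into 10 bins of equal size, bins 1 to 3, the scarcest, were described apart from bins 4 to 9. In bins 1 to 3 57.6% of all genes were called lower, and 6 of 10 HOX genes were. HOXB13 and HOXC4, whose direction the filter fixed, are among these 6. In bins 4 to 9, which begin at a mean of 5.24 FPKM, 35.4% of all genes were called lower and the median log2 fold change was 0.17. There 15 of 15 HOX genes were called lower, with a median of -1.53. Bin 10 held no HOX gene. This split into ranges was chosen after the values were seen.

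**Figure D4:**
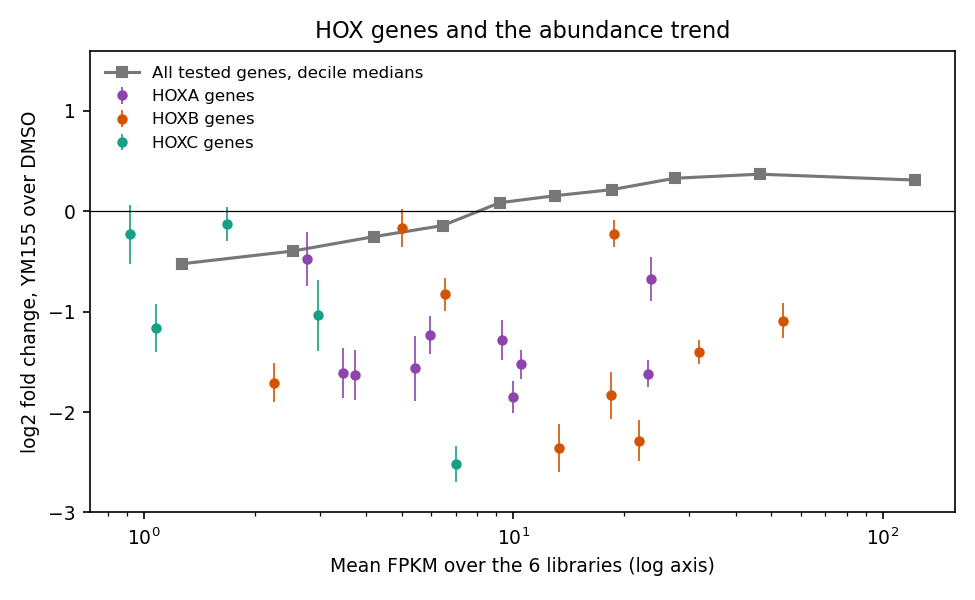
Log2 fold change (YM155 over DMSO) against mean FPKM over the 6 libraries (log axis). Grey squares are medians of 10 bins of all 12035 tested genes, and coloured points are 24 of the 25 tested HOX genes with 95% intervals from limma. The grey line climbs to 0.37 in bin 9, and the HOX genes above 5.24 FPKM lie below it.

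Several falling genes share a start region, and their upstream sequences are shown for that reason. RefSeq promoter windows (assembly GRCh38.p14) were at hand for 20 of the 39 genes, 11 of them tested. These 11 were HOXA2, HOXA3, HOXA4, HOXA6, HOXA7, HOXA9, HOXA10, HOXA11, HOXA13, HOXC4 and HOXC5. No tested HOXB gene had a window, and neither did HOXC6. HOXC4 and HOXC5 share 1 window. HOXA11 and its antisense RNA HOXA11-AS start 176 bases apart on opposite strands, and their windows share 175 bases. HOXA13 and the long noncoding RNA HOTTIP start 330 bases apart on opposite strands and share 171 bases. HOXA3 and HOXA7 are shown for a run of letters they have in common with HOXC4 and HOXC5. HOXA3 has 7 listed starts, and the farthest upstream one is given. Each sequence is the 250 bases before the start, 5′ to 3′ on the gene's strand. Capitals mark, on either strand, the boxes CCAAT or GGGCGG or TATAAA and the patterns TTTATNG or TGATNNAT or TCATGTG, and 2 motifs can overlap.
HOXC4 and HOXC5, chr12:54016638-54016887, plus strand: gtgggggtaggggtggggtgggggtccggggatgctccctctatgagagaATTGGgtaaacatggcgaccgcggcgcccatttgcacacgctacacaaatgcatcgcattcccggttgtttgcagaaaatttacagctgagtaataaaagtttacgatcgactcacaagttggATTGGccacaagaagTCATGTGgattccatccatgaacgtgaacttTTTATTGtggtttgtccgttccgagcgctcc
HOXA3, chr7:27152584-27152833, minus strand: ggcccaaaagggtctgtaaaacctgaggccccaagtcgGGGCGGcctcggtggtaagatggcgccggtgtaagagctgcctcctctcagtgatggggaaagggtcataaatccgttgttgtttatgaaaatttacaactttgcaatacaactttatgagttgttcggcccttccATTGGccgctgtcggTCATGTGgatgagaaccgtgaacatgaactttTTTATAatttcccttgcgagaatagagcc
HOXA7, chr7:27156676-27156925, minus strand: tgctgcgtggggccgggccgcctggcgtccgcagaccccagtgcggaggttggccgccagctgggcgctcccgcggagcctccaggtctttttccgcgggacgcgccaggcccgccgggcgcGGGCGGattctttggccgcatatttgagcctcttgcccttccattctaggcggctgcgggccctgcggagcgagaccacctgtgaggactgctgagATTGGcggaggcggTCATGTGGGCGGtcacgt
HOXA11, chr7:27185233-27185482, minus strand: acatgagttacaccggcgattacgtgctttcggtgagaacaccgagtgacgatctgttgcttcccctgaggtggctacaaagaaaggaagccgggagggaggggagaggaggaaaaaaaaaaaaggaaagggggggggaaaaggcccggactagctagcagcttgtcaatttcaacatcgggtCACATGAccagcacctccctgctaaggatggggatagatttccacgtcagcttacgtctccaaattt
HOXA13, chr7:27200092-27200341, minus strand: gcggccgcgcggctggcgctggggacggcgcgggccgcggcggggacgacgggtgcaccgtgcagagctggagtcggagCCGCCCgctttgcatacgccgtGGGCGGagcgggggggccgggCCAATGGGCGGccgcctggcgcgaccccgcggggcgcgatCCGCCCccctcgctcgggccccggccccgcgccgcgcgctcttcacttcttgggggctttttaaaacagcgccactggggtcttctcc

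In these windows the CCAAT box, the letters NF-Y binds, occurred in 10 of the 11 tested HOX genes and in 7 of the 9 untested ones, against 32.0% of 34943 RefSeq windows of that length. The letters TTTATNG, a caudal-type core, occurred in 4 of 11 tested genes (HOXA9, HOXA10, HOXC4 and HOXC5), against 8.95% of all windows. TATAAA was found in 3 of 11 against 10.8%, the GC box GGGCGG in 5 of 11 against 42.5%, and the PBX-HOX pattern TGATNNAT in 1 of 11 against 6.49%. TCATGTG, searched only after the windows had been read, was in 6 of 11 tested and 1 of 9 untested HOX genes, against 2.53% of all windows. Because it was picked from HOX windows, its higher share in them follows from that choice and tests nothing. In the HOXC4 and HOXC5 window the nearer CCAAT begins 77 bases and TCATGTG 62 bases before the start, and in the HOXA3 window 76 and 61 bases. HOXA13 had 40 CG dinucleotides in its window, a number reached by 2.17% of all windows, against a median of 19 for the 11 tested HOX genes and 11 for all windows. HOXC4 and HOXC5 count separately here although they share their window, and a match describes letters only. The shares of tested genes leave out the HOXB cluster and HOXC6, which had no window.

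Noncoding RNAs of the clusters that could be tested were mostly lower. Of 22 noncoding and readthrough rows in the files 9 were tested, and 8 were lower, HOXA10-HOXA9 among them, and 0 higher by limma (0 also at an unadjusted p under 0.05), with a median log2 fold change of -1.34. Among all genes tested 41.0% were lower and 43.6% higher. HOXA-AS2 and HOXA-AS3 were under 1 FPKM in every YM155 library and passed the filter through their DMSO libraries, so their direction was fixed. HOTAIR, a noncoding RNA of the HOXC cluster known to bind Polycomb complexes, had 2.87, 2.21 and 1.96 FPKM with YM155 and 16.2, 15.4 and 17.2 FPKM with DMSO, a 6.94-fold fall. HOTTIP, at the 5′ tip of HOXA and known to recruit the activator WDR5, had 1.04, 0.688 and 0.934 FPKM with YM155 and 6.01, 6.20 and 6.06 FPKM with DMSO, a 6.87-fold fall. Its divergent partner HOXA13 fell 2.77-fold. HOXA11-AS had 4.56, 3.07 and 3.52 FPKM with YM155 and 18.3, 23.1 and 20.1 FPKM with DMSO, a 5.52-fold fall beside the 2.70-fold fall of HOXA11. HOXB-AS3, which overlaps HOXB5 and HOXB6 and encodes a small peptide, fell 3.31-fold, to 17.8 ± 3.55 FPKM with YM155, against 58.8 ± 3.59 FPKM with DMSO (SD, n = 3 each). HOXA-AS3, which spans HOXA5 to HOXA7, fell 8.67-fold, to 0.210 ± 0.0171 FPKM with YM155, against 1.82 ± 0.231 FPKM with DMSO, also near the level of 3 reads per kilobase in the YM155 libraries. HOTAIRM1, a noncoding RNA of the HOXA cluster known from myeloid cells, was at 38.2, 36.9 and 37.2 FPKM with YM155 and 37.6, 35.7 and 36.6 FPKM with DMSO (log2 fold change 0.03, 95% interval -0.07 to 0.13). It was called lower with upper-quartile, common sum and quantile scaling (-0.21, -0.28 and -0.36) and with the abundance trend removed (-0.30). Whether quantification used strand is not given in the sources used here, so reads of a gene and an antisense RNA that overlaps it cannot be told apart. RefSeq places another gene over 16 of the 25 tested HOX genes. Of 6 miRNA rows, MIR10B, MIR196A1, MIR196A2, MIR196B and MIR615 were listed at 0 in every library, and MIR10A was at 15.2 FPKM in YM155 replicate 2 and at 0 in the other libraries. RefSeq has MIR10A overlap HOXB3. The libraries were of messenger RNA, so these rows are no measure of mature miRNAs.

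HOX proteins bind DNA with TALE cofactors of the PBX, MEIS and PKNOX families. Of 11 TALE genes 9 were tested, and 5 fell while 3 rose (median log2 fold change -0.64), shares near those over all genes tested (41.0% lower and 43.6% higher). MEIS1, among the 5, was under 1 FPKM in every YM155 library and passed the filter only through its DMSO libraries, so its direction was fixed. A gene among the 3 that rose passed only through its YM155 libraries, so its direction was fixed likewise. MEIS2 fell 4.04-fold, with 1.67, 1.70 and 2.01 FPKM with YM155 against 7.28, 6.74 and 7.73 FPKM with DMSO. Of the genes chosen after their values were seen, MEIS1, the partner of HOXA9 in leukaemia, fell 9.88-fold, to 0.118 ± 0.0294 FPKM with YM155, against 1.17 ± 0.0899 FPKM with DMSO (SD, n = 3 each). Its YM155 values lie under the level of 3 reads per kilobase, so its fold is imprecise. PBX2, also chosen in that way, fell 1.62-fold. PBX3 did not pass, at 3.83 ± 0.108 FPKM with YM155 and 3.37 ± 0.435 FPKM with DMSO, and its log2 fold change of 0.15 became -0.0457 after upper-quartile scaling and -0.10 after common sum scaling. PBX3 was called higher with quantile normalization (0.36), with cyclic loess (0.40) and without DMSO replicate 3 (0.23). The TGIF pair of corepressors moved in opposite directions. TGIF1 rose 2.32-fold, to 216 ± 11.5 FPKM with YM155, against 93.1 ± 2.97 FPKM with DMSO, and TGIF2 fell 4.63-fold, to 3.94 ± 0.521 FPKM, against 18.3 ± 0.465 FPKM.

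CDX2, the caudal factor that sets intestinal identity, was the only tested gene of 6 ParaHox and caudal genes. It fell 3.81-fold, with 0.973, 0.857 and 0.686 FPKM with YM155 against 2.97, 2.91 and 3.72 FPKM with DMSO (log2 fold change -1.19, SE 0.10, adjusted p = 3.9e-06 by limma). CDX2 was under 1 FPKM in every YM155 library and passed the filter only through its DMSO libraries, so its direction was fixed. PDX1 was under the filter, at 0.136 ± 0.0457 FPKM with YM155 and 0.947 ± 0.264 FPKM with DMSO.

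Genes of chromatin complexes that keep HOX genes active were mostly higher. Of 18 genes of the MLL (COMPASS) and DOT1L group 14 rose and 3 fell (median log2 fold change 0.85), against 43.6% of all genes tested called higher and 41.0% lower. The median over all genes tested was 0.02, and it was 0.17 in abundance bins 4 to 9. DOT1L, a histone methyltransferase of transcribed genes, rose 3.22-fold, to 16.4 ± 0.0343 FPKM with YM155, against 5.08 ± 0.219 FPKM with DMSO. KDM6B, which removes the Polycomb methyl mark, rose 3.35-fold, and KMT2B, a histone methyltransferase, 2.96-fold. AFF4, the scaffold of the super elongation complex, rose 3.35-fold. KMT2A, the MLL gene itself, rose 1.88-fold, to 18.9 ± 1.14 FPKM with YM155, against 10.05 ± 0.648 FPKM with DMSO. Its partner MEN1, encoding menin, fell 1.90-fold, to 13.7 ± 0.690 FPKM, against 26.0 ± 1.02 FPKM. KMT2A and MEN1 were named after their values were seen.

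Of 22 Polycomb genes 14 rose and 7 fell (median log2 fold change 0.35), against 43.6% of all genes tested higher and 41.0% lower. With common sum scaling 9 were called higher and 8 lower, against 31.8% of all genes tested higher and 53.4% lower under that scaling. Some of the 7 that fell passed the filter only through their DMSO libraries, so their direction was fixed. PHF1, an accessory subunit of the Polycomb methyltransferase complex, rose 4.54-fold, to 35.5 ± 2.29 FPKM with YM155, against 7.83 ± 0.855 FPKM with DMSO. The histone-binding subunits RBBP4 and RBBP7, which other chromatin complexes also use, fell 2.67-fold and 2.48-fold. Of 9 tested retinoid, loop and other regulators 5 rose and 3 fell (median log2 fold change 0.27), also near the shares over all genes tested (43.6% higher and 41.0% lower). The retinoic acid receptor gene RARA rose 2.86-fold, YY1 2.70-fold and the insulator gene CTCF 1.85-fold, and GMNN, encoding geminin, fell 2.49-fold.

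Protein-coding genes beside the clusters moved in both directions. Of 12 tested neighbours 7 fell and 5 rose, with a median log2 fold change of -0.33, against 41.0% of all genes tested lower and 43.6% higher. With upper-quartile, common sum, quantile or cyclic loess scaling 2 neighbours were called higher in place of 5. Under these scalings 34.8%, 31.8%, 38.4% and 40.8% of all genes tested were called higher. Beside HOXC, CBX5 fell 3.49-fold, SMUG1 2.25-fold and COPZ1 1.56-fold. On the HOXA side, SKAP2, named after its values were seen, rose 1.62-fold, to 20.7 ± 1.54 FPKM with YM155, against 12.8 ± 0.885 FPKM with DMSO, and TAX1BP1 rose 2.88-fold.

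**Figure D5:**
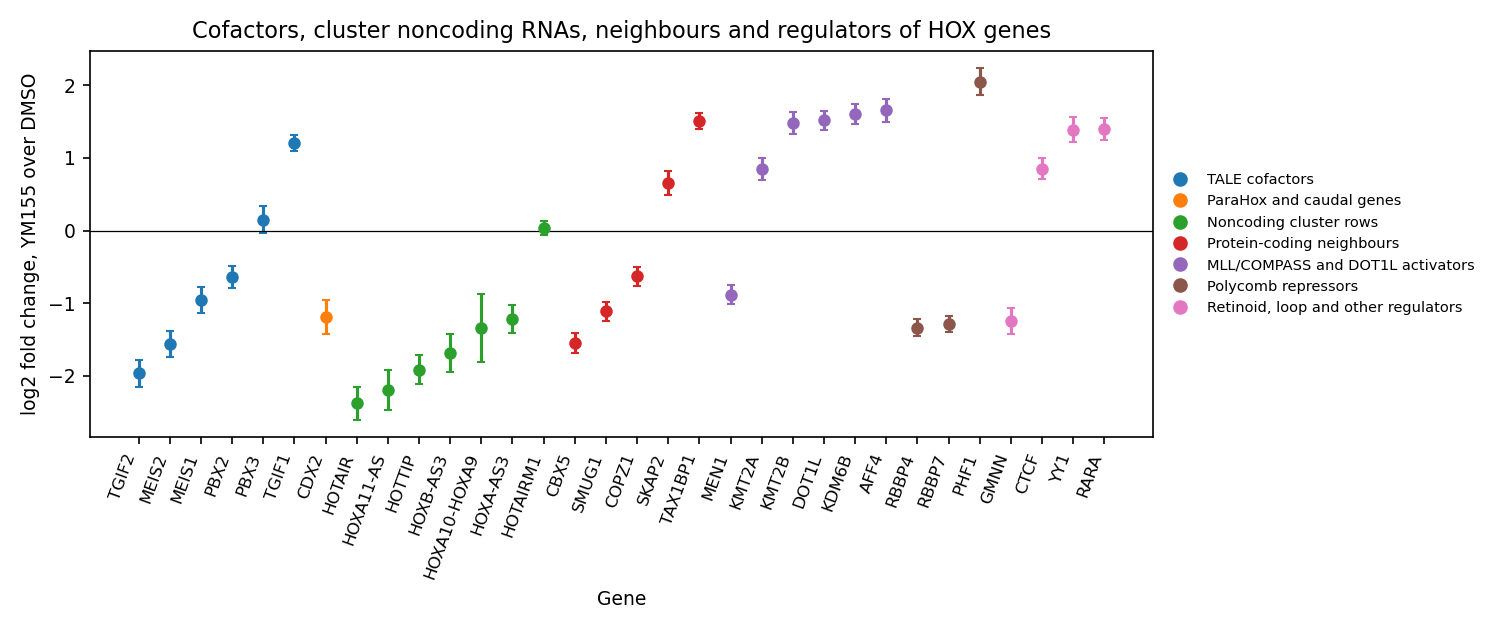
Log2 fold change (YM155 over DMSO) with 95% intervals from limma for the cofactors, cluster noncoding RNAs, neighbours and regulators named in the text, coloured by list. HOTAIR (-2.38) is lowest and PHF1 (2.05) highest of those shown, and the intervals of HOTAIRM1 and PBX3 include 0.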

How the data were processed

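RNA of 6 HT29 samples, 3 with YM155 for 24 h and 3 with DMSO, was sequenced from stranded mRNA libraries, per the labels' protocols. Groups come from the treatment label; the sample titles and table headers spell the compound YM115. The authors deposited FPKM values per gene symbol, 1 table per library. Cufflinks 2.2.1, Cuffdiff, SAMtools 1.2, Bowtie2 2.3.5.1 and TopHat2 2.1.1 and the build hg19 are named in the submitters' processing notes. Their settings, the annotation and the scaling of libraries are unknown here. FPKM values hold no counts, so no count test was run; depth was estimated from the steps of low values and single-transcript GENCODE genes, with an assumed fragment length of 200 bases.

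Genes at 1 FPKM or more in 3 of 6 libraries were compared on log2(FPKM + 1), pseudocount 1, with limma 3.58.1 in R 4.3.3 (eBayes with trend, two-sided, adjusted over all genes tested); the fit was tested on simulated data. An exact permutation test of 3 against 3 libraries cannot go below p = 0.10 and was not used. Sums over clusters and paralogs are descriptions. Replicates of a group differed by more than Poisson sampling (chi-square per degree of freedom 2.78 to 6.46) and shared 0% of values, so each counts as 1 sample. Members and lists were chosen with earlier results of these data known. The rule named every tested HOX gene, the 4 lowest-p called genes of each list and the most abundant one not called; some of these genes are not reported here. HOXA10-HOXA9, HOXA-AS3, MEIS1, PBX2, KMT2A, MEN1, SKAP2 and the marker and miRNA rows were named after their values were seen. Alternatives were pseudocounts of 0.1 and 0.5, other filters, 5 scalings, other eBayes settings, weights, a replicate block, each library left out and a threshold of 0.01.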

Additional observations from a re-analysis of the deposited data

How the results depend on the processing

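The 21 HOX genes called lower numbered 20 to 24 over all alternatives, and 21 to 23 with 1 library left out. At least 20 of the original 21 remained under each; the other, under quantile normalization and with the abundance trend removed by cyclic loess, was HOXA4. HOX genes called higher, 0 in the main analysis, were 1 without a filter (HOXD4), 2 with quantile normalization and 2 with cyclic loess (HOXC13 among them in both), and 0 to 1 with 1 library left out (1 without DMSO replicate 2). With the replicate block 21 were lower and 0 higher. Deviations from the group means showed no positive correlation between libraries of the same number (-0.07, -0.15 and -0.12). Such deviations cannot show that libraries were unpaired, and the labels do not say. Upper-quartile, common sum and quantile scaling moved the all-gene median by -0.22, -0.28 and -0.11 (log2), and the median of the tested HOX genes relative to it was -1.31, -1.30 and -1.31, against -1.30 on the deposited scale. Upper-quartile and common sum scaling divide each library by 1 factor, so this relative median was nearly fixed under them. The ratio of summed FPKM (YM155 over DMSO) under upper-quartile, common sum and quantile scaling was 0.320, 0.304 and 0.348 for HOXA, 0.326, 0.310 and 0.316 for HOXB, and 0.226, 0.215 and 0.332 for HOXC. For HOXD quantile normalization put it at 2.05. With 1 library left out the ratio was 0.372 to 0.395 for HOXA, 0.375 to 0.405 for HOXB, 0.259 to 0.282 for HOXC and 0.972 to 1.40 for HOXD. Log2 fold changes that turned sign were those of HOXB2 (0.00188 cyclic loess), HOXC13 (0.19 quantile, 0.29 cyclic loess), HOXC9 (0.0647 quantile, 0.29 cyclic loess), PBX3 (-0.0457 upper-quartile, -0.10 common sum) and HOTAIRM1 (-0.21 upper-quartile, -0.28 common sum, -0.36 quantile, -0.30 cyclic loess). The cause was not tested. Depth limits HOXD and the scarce HOXC genes, where values under 3 reads per kilobase in both groups rest on counting error and a change can be missed.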

Other observations

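The order of HOX genes by level differed between the groups. HOXB9 ranked 1 in both, with 21.6% of mean summed HOX FPKM with YM155 and 17.7% with DMSO. HOXB7 ranked 3 with YM155 and 8 with DMSO, at 10.9% and 4.85% of the sum. HOXA9 ranked 2 with YM155 and 5 with DMSO, at 11.3% and 7.06%. HOXB5 ranked 7 with YM155 and 3 with DMSO, at 4.31% and 8.86%, and HOXC6 ranked 20 with YM155 and 12 with DMSO. Across the 25 tested HOX genes, which share libraries and whose log2 fold changes are computed from the same DMSO values, the log2 DMSO level and the log2 fold change had a Pearson correlation of -0.50 and a Spearman correlation of -0.46. On the log2(FPKM + 1) scale falls of scarce genes come out too small, which by itself makes such correlations more negative. TTLL6, a neighbour of the HOXB cluster chosen after its values were seen, was under the filter, at 0.0558, 0.0343 and 0 FPKM with YM155 and 0.517, 0.382 and 0.352 FPKM with DMSO.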
